A study of Nothobranchius furzeri with 68 samples.

Results

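Solute carriers are membrane proteins that move small molecules and ions across the plasma membrane and the membranes of organelles, and each gene symbol carries the number of the family it belongs to. The genes described here are those whose name in both deposited count tables starts with slc, a family number and the letter a, and that reached a total of 500 counts over the libraries of the liver table or of the muscle table. Of 25065 gene names found in both tables, 197 followed this pattern and 153 of them, from 42 families, reached the minimum. The choice used the name and the total count and no tested difference between groups. Because either tissue could supply the counts, a gene could enter through the tissue where it was high. In liver 146 of the 153 reached 500 counts, in muscle 124 did, and 117 did so in both tissues. The members closest above the minimum were slc7a14 with 575 counts in liver and 44 in muscle, slc13a4 with 537 and 37, and slc4a10 with 528 and 15. Those closest below were slc5a2 with 491 and 328, slc6a2 with 156 and 427, and slc39a4 with 420 and 22. The pattern also takes in 5 genes whose products are not carriers, slc2a4rg, slc4a1ap, slc7a6os, slc9a3r1 and slc9a3r2, which were kept.

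The study sequenced polyA RNA from liver and muscle of the turquoise killifish Nothobranchius furzeri, a short-lived vertebrate, in 68 libraries from 41 fish. Their genotype was either wild type (WT) or heterozygous (Het) at aprt, the gene of adenine phosphoribosyltransferase, which makes AMP from adenine. They were young (6.5 weeks) or old (15 weeks), and had either been fully fed or fasted for 24 h. The 12 liver groups were fed males, fasted males and fasted females of each age and genotype, and the 8 muscle groups were fasted males and fasted females of each age and genotype, with 3 or 4 fish in each. Livers came from 14 fed males, 13 fasted males and 14 fasted females, and the 27 muscles came from the same fish as the 27 fasted livers. No fed females and no fed muscle were among the samples, so the effect of fasting is known here for male liver, and sex and tissue were compared in fasted fish. Every Het fish kept 1 wild-type aprt allele.

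Carriers work by binding their substrate and changing shape, and many exchange one solute for another or couple transport to a sodium or proton gradient. In liver they take up amino acids, sugars, bile acids and fatty acids from blood, export iron, and link the cytosol to the mitochondrion, where the slc25 family passes nucleotides, amino acids and acylcarnitines through the inner membrane. Muscle relies on them for glucose uptake, creatine uptake, calcium extrusion and the exchange of ADP for ATP. Members were grouped by what their family transports, each family as a whole, beside the 5 that are not carriers. This gave 27 mitochondrial carriers, 23 amino acid carriers and partners, and 23 carriers of organic acids, bile acids, peptides and drugs. There were 20 of metals, 18 of inorganic ions and protons, and 17 of sugars and sugar phosphates. The rest were 10 of vitamins, choline and heme, 6 of nucleotide sugars, phosphate and acetyl-CoA, 2 of nucleosides and 2 of fatty acids. Single members can differ from their group. Thus slc43a3 counts with the amino acid carriers, and slc16a10 and slc22a17 count with those of organic acids, whatever they carry themselves.

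The liver libraries held 19949104 to 31600126 counts each, and the muscle libraries 24144462 to 31331150. Levels are CPM, counts scaled to the size of each library within 1 tissue after TMM scaling, as in the tests. Transcript lengths were not used, so levels are not compared between genes. In 10 of 10 pairs of groups the Het mean of aprt was below the WT mean, with a log2 difference of -0.86 ± 0.11 (SE, edgeR adjusted p = 1e-04) in fasted liver and -0.91 ± 0.21 (edgeR adjusted p = 0.00904) in old fed males. In young fed males it was -0.50 ± 0.21 (edgeR adjusted p = 0.186), and there the WT range (13.3 to 24.4 CPM) overlapped the Het range (12.5 to 17.3 CPM). Of these WT fish, male 47 stood at 13.3 CPM, within the Het range, and males 45 and 46 at 24.4 and 23.7 CPM. In 1 female, the library labelled old Het fish 21, aprt stood at 11.9 CPM in liver and 10.1 CPM in muscle, within the WT range of its age and sex. Summed leukocyte markers (14 genes) had a median of 24.4 CPM in liver and stood at 562 and 485 CPM in the fed old males 4 and 13 and at 842 and 589 CPM in the fasted old males 18 and 26, against at most 158 CPM in any other liver. In muscle the sum was 186, 140 and 271 CPM in fasted old males 18, 19 and 26 and at most 79.8 CPM elsewhere. Hepatocyte markers (10 genes) summed to at least 54040 CPM in every liver and to a median of 10.9 CPM in muscle, with 3292 CPM in the muscle of old Het male 25. For each comparison the fit without these libraries is given where it changes a call named here or moves a count of calls by over 1.5 times. All tests are edgeR quasi-likelihood tests across every gene of a tissue, with Benjamini-Hochberg adjustment, and a gene is called higher or lower at an adjusted p under 0.05. The samples are whole tissue, in which fewer cells of a type and less RNA per cell cannot be told apart.

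Fasting changed many carriers of male liver in both directions. Among 23 amino acid carriers 8 rose and 4 fell, with rises in slc7a2, slc7a3 and slc43a1 and a fall in slc7a11. The acetyl-CoA carrier slc33a1 and the Golgi proton exchangers slc9a7 and slc9a8 fell so far that fed and fasted fish did not overlap. The urate and sugar carrier slc2a9 rose without overlap. Of 150 members tested, 43 were called higher and 34 lower in fasted males, or 51.3% against 47.6% of all 17406 genes tested, so the share of carriers called lay near the background. The rises were 28.7% of the members against 24% of all genes and the falls 22.7% against 23.6%, and the median log2 difference was 0.05 over the members and 0.02 over all genes. Without the 4 leukocyte-rich livers 71 of these 77 calls held, among them every member named below for fasting over both ages.

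The median log2 difference over the 23 amino acid carriers was 0.22, and 11 of them were not called. Of the 9 names numbered slc7, a family that carries cationic and neutral amino acids, 5 were higher and 1 lower, with a median of 0.81. Of those higher, 1 was slc7a6os, which is not a carrier. Over all genes 24% were higher and 23.6% lower. The arginine and lysine carrier slc7a2 ranged from 39.5 to 101 CPM in the 14 fed males with a median of 65.6, and from 29.3 to 253 CPM in the 13 fasted males with a median of 202. Most fasted fish thus stood above every fed fish, although the ranges overlapped at the low end, and the log2 difference was 1.55 ± 0.22 (SE, edgeR adjusted p = 8.6e-07). The related cationic amino acid carrier slc7a3 had a median of 8.46 CPM when fed (4.24 to 23.0) and 42.5 CPM when fasted (5.62 to 114), a log2 difference of 1.99 ± 0.35 (edgeR adjusted p = 1.52e-05). For slc3a2, the single-pass partner that brings several slc7 carriers to the cell surface, the fed median was 12.2 CPM (6.00 to 59.5) and the fasted median 36.0 CPM (13.0 to 186), a log2 difference of 1.88 ± 0.43 (edgeR adjusted p = 0.00054). One fed fish, old Het male 14, lay at the 59.5 CPM end of that range and inside the fasted one.

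The carrier of branched-chain and other large neutral amino acids slc43a1 ranged from 10.3 to 78.4 CPM in fed males (median 34.9) and from 56.1 to 232 CPM in fasted males (median 95.3), with a log2 difference of 1.71 ± 0.18 (edgeR adjusted p = 3.46e-09). The fasted ends of its range divided by age, as described further on. The exception among amino acid exchangers was slc7a11, which imports cystine in exchange for glutamate. Its median was 18.7 CPM in fed males (7.12 to 31.5) and 6.65 CPM in fasted males (2.04 to 19.3), and it fell by 1.15 ± 0.29 on the log2 scale (edgeR adjusted p = 0.00123). Also lower was slc43a3, known in mammals as a carrier of purine nucleobases, with a fed median of 44.9 CPM (24.1 to 54.6) and a fasted median of 23.8 CPM (10.3 to 47.5), a log2 difference of -0.93 ± 0.19 (edgeR adjusted p = 9.96e-05).

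**Figure D1:**
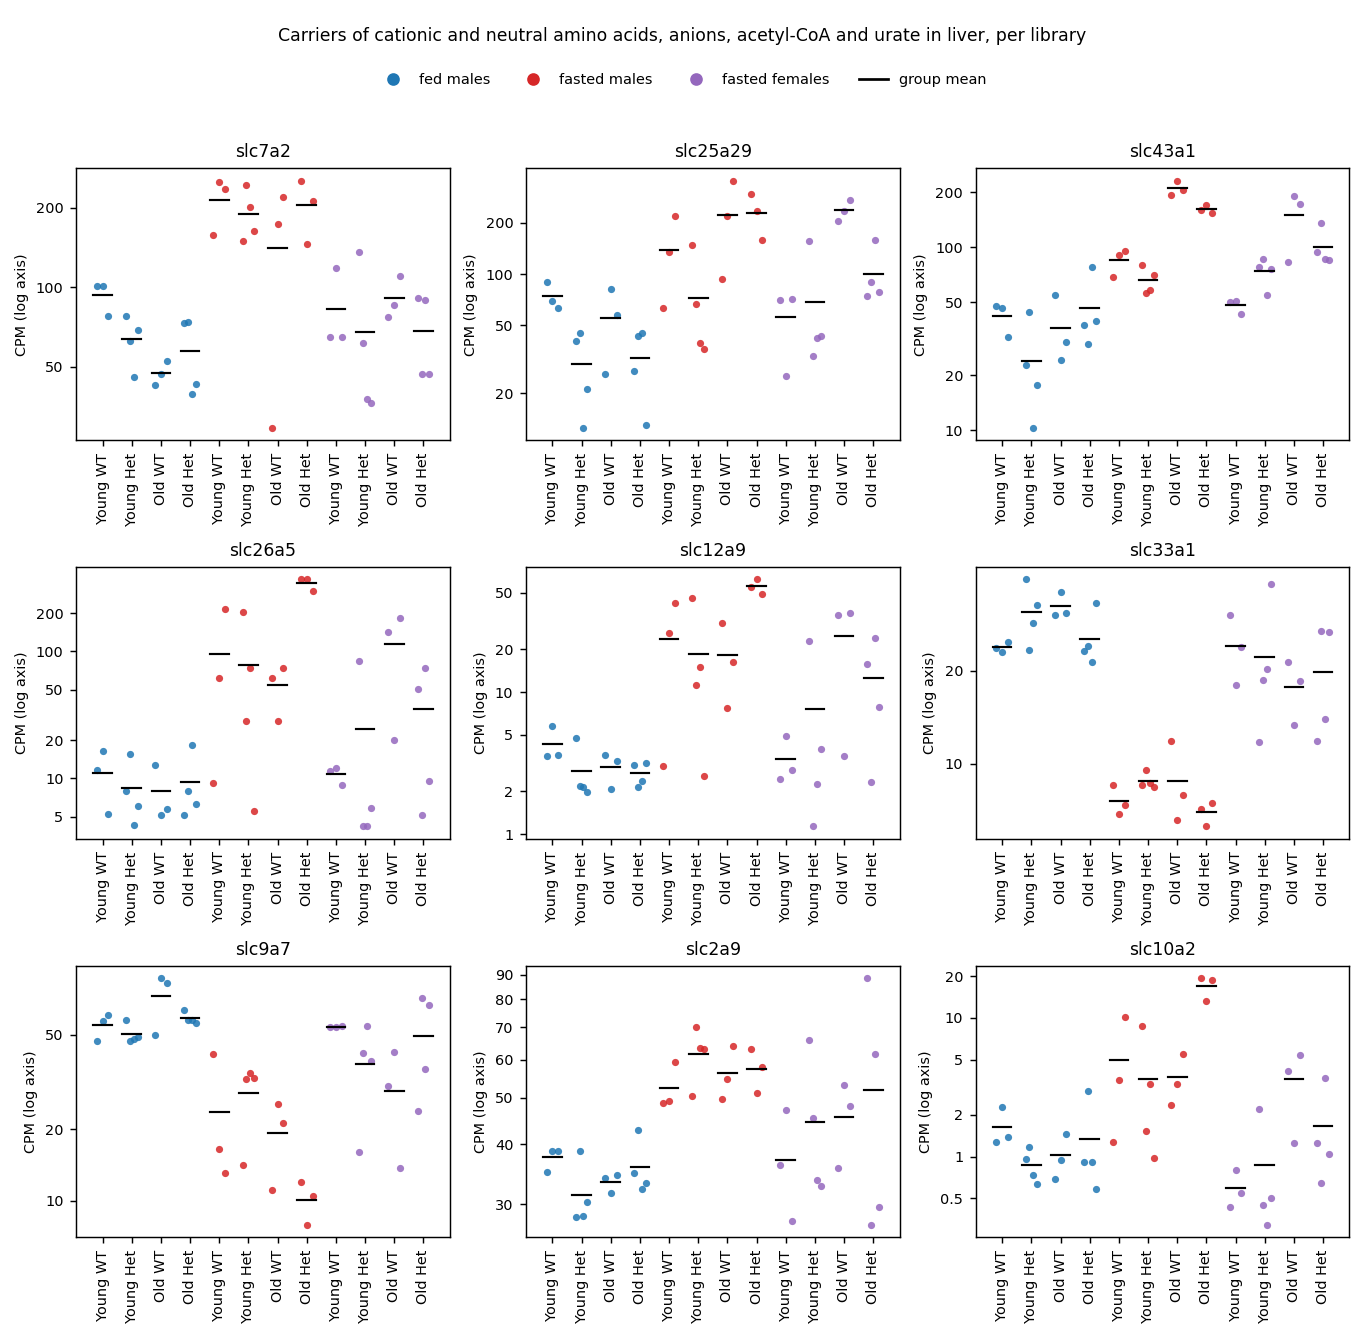
Liver CPM on a log axis for 9 carriers, 1 point per fish, in the 12 liver groups of fed males, fasted males and fasted females by age and aprt genotype; black bars are group means. The amino acid carriers slc7a2, slc25a29 and slc43a1 stand higher in fasted than in fed males at the median, and slc33a1 and slc9a7 stand lower with no overlap between fed and fasted males.

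Among the 26 mitochondrial carriers tested, 7 were higher and 6 lower, with a median of -0.03, where 24% of all genes were higher and 23.6% lower. The largest rise was that of slc25a33, a pyrimidine nucleotide carrier, from a fed median of 41.3 CPM (23.8 to 111) to a fasted median of 170 CPM (84.9 to 465), a log2 difference of 2.20 ± 0.25 (edgeR adjusted p = 2.44e-08). The largest fall was that of its close relative slc25a36, which also carries pyrimidine nucleotides, from a median of 52.2 CPM (25.0 to 116) to 16.2 CPM (8.78 to 58.8), a log2 difference of -1.37 ± 0.15 (edgeR adjusted p = 5.76e-09). Averaged over ages and genotypes, the pair therefore moved in opposite directions, with fed and fasted ranges overlapping for both. Young Het males showed no fall in slc25a36, and the responses of both genes differed with genotype, as described further on. The basic amino acid carrier slc25a29 had a fed median of 44.1 CPM (12.5 to 90.01) and a fasted median of 148 CPM (36.3 to 353), with a log2 difference of 1.76 ± 0.29 (edgeR adjusted p = 9.1e-06). The carnitine and acylcarnitine carrier slc25a20, which admits fatty acids bound for oxidation, ranged from 45.0 to 69.8 CPM in fed males (median 48.8) and from 17.2 to 53.5 CPM in fasted males (median 28.2), and fell by 0.95 ± 0.13 on the log2 scale (edgeR adjusted p = 2.15e-07). The choline carrier slc25a48 was also called higher, at 1.12 ± 0.29 (edgeR adjusted p = 0.00181), with ranges of 11.4 to 202 CPM when fed and 34.6 to 254 CPM when fasted that were spread by genotype. Fasted WT males stood above fed WT males without overlap, whereas fed and fasted Het males overlapped, as given further on.

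Carriers of inorganic ions and protons moved both ways, with 6 of 17 higher and 8 lower and a median log2 difference of -0.27. Of all genes 24% were higher and 23.6% lower. All 3 sodium and proton exchangers of the slc9 family tested in liver, slc9a3, slc9a7 and slc9a8, were lower. The trans-Golgi exchanger slc9a7 ranged from 47.0 to 86.5 CPM in fed males (median 57.1) and from 7.91 to 41.4 CPM in fasted males (median 16.5), so that every fasted fish lay below every fed fish, and it fell by 1.62 ± 0.21 on the log2 scale (edgeR adjusted p = 1.2e-07). The Golgi exchanger slc9a8 ranged from 19.7 to 38.2 CPM and from 12.2 to 18.8 CPM, again without overlap, and fell by 0.70 ± 0.13 (edgeR adjusted p = 4.62e-05). The apical exchanger slc9a3 stood much lower in CPM, at a median of 1.42 when fed and 0.78 when fasted, and fell by 0.92 ± 0.19 (edgeR adjusted p = 0.000195).

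Among called members with an average log2 CPM of 0 or more, the largest rises belonged to this group as well. The anion carrier slc26a5, known in mammals as the motor protein prestin of the inner ear, had a fed median of 7.07 CPM (4.32 to 18.3) and a fasted median of 73.4 CPM (5.54 to 370), a log2 difference of 3.57 ± 0.56 (edgeR adjusted p = 3.56e-06). Old fasted Het males stood at 370, 370 and 299 CPM and old fasted WT males at 61.7, 28.3 and 74.1 CPM, while young WT male 31 (9.20 CPM) and young Het male 41 (5.54 CPM) remained in the fed range. The difference of its fasting response between genotypes was 1.25 ± 1.02 (edgeR adjusted p = 0.562). The cation and chloride cotransporter relative slc12a9, whose substrate is not settled, had medians of 3.13 CPM (1.99 to 5.80) and 26.1 CPM (2.56 to 62.3), a log2 difference of 3.04 ± 0.45 (edgeR adjusted p = 1.61e-06). The sulfate carrier slc26a1 had medians of 37.1 and 89.5 CPM and a log2 difference of 1.15 ± 0.24 (edgeR adjusted p = 0.000212). The kidney-type cotransporter slc12a1 was called lower at -1.52 ± 0.55 (edgeR adjusted p = 0.0219), on a fed median of 1.66 CPM. Fed old WT male 5 stood at 40.2 CPM, and the highest young fed WT male at 36.4 CPM. Without old WT male 5 the edgeR adjusted p was 0.262. Summed kidney tubule markers (7 genes, slc12a1 among them) had a liver median of 13.3 CPM. They were highest in old WT male 5 at 95.0 CPM and reached 89.3 CPM in the young fed WT group. Their part in the result was not tested.

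The acetyl-CoA carrier slc33a1, which supplies the endoplasmic reticulum, ranged from 21.3 to 39.5 CPM in fed males (median 26.6) and from 6.28 to 11.9 CPM in fasted males (median 7.95). The groups did not overlap, and it fell by 1.80 ± 0.15 on the log2 scale (edgeR adjusted p = 6.57e-11). No other member of the 6 carriers of nucleotide sugars, phosphate and acetyl-CoA was called.

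Sugar carriers were higher in 6 and lower in 3 of 17 cases, with a median of 0.21, where 24% of all genes were higher and 23.6% lower. Among the 7 names numbered slc2, of which slc2a4rg is not a carrier and was not called, 4 were higher and 1 lower. The most distinct was slc2a9, which in mammals moves urate as well as sugars, at 28.2 to 42.7 CPM in fed males (median 34.3) and 48.6 to 70.0 CPM in fasted males (median 57.8), with no overlap and a log2 difference of 0.72 ± 0.14 (edgeR adjusted p = 4.98e-05). The lysosomal relative slc2a6 had medians of 9.02 and 19.0 CPM and a difference of 1.06 ± 0.14 (edgeR adjusted p = 2.1e-07). The hepatic glucose carrier slc2a2 changed least among the slc2 members called, at 0.31 ± 0.10 (edgeR adjusted p = 0.00794), with medians of 278 and 366 CPM and overlapping ranges. The myo-inositol carrier slc5a3 was lower at -1.16 ± 0.25 (edgeR adjusted p = 0.000282), on levels of 0.45 to 4.82 CPM when fed and 0.13 to 1.35 CPM when fasted.

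Metal carriers were higher in 4 and lower in 5 of 20 cases, where 24% of all genes were higher and 23.6% lower. Zinc exporters of the slc30 family had 3 of 7 higher and 1 lower. The Golgi zinc carrier slc30a6 had a fed median of 8.16 CPM (5.02 to 11.3) and a fasted median of 20.0 CPM (7.87 to 101), a log2 difference of 1.58 ± 0.17 (edgeR adjusted p = 6.28e-09). Its mammalian partner in the same compartment, slc30a5, went the other way, with medians of 21.8 and 18.0 CPM and a difference of -0.55 ± 0.16 (edgeR adjusted p = 0.00454). The copper importer slc31a1 had medians of 79.6 CPM (56.0 to 105) and 48.6 CPM (36.3 to 63.8) and fell by 0.61 ± 0.08 (edgeR adjusted p = 3.83e-07).

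Among the 22 tested carriers of organic acids, bile acids, peptides and drugs, 5 were higher and 3 lower. The shares over all genes were 24% higher and 23.6% lower. The sodium-coupled bile acid carrier slc10a2, the apical form of ileum and bile duct in mammals, rose from a median of 0.95 CPM (0.58 to 2.96) to 3.54 CPM (0.97 to 19.4), a log2 difference of 2.30 ± 0.36 (edgeR adjusted p = 3.45e-06). The lipocalin receptor slc22a17 had medians of 1.26 and 3.43 CPM and a difference of 1.29 ± 0.19 (edgeR adjusted p = 1.3e-06). Vitamin, choline and heme carriers were higher in 4 and lower in 2 of 10 cases, among them the reduced folate carrier slc19a1 (0.34 ± 0.09, edgeR adjusted p = 0.00344) and the riboflavin carrier slc52a3 (0.41 ± 0.09, edgeR adjusted p = 0.00036), both higher.

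By age, fasting was called in 29 members higher and 16 lower in young males (30% of members, against 24.7% of all genes, 13.3% higher and 11.4% lower) and in 36 higher and 28 lower in old males (42.7% of members, against 41.6% of all genes, 20.1% higher and 21.5% lower). The difference of the response between ages was called for 1 member, or 0.667% against 1.01% of all genes, 0.241% higher and 0.764% lower. This was slc25a20, whose fasting difference was lower in old than in young males by 1.15 ± 0.25 on the log2 scale (edgeR adjusted p = 0.0167). Its levels when fasted were 28.6, 34.0 and 37.1 CPM in young WT, 46.8, 53.0, 53.5 and 28.2 CPM in young Het, 19.0, 20.6 and 21.1 CPM in old WT and 17.2, 19.0 and 21.6 CPM in old Het males. Every old fasted male thus lay below every young one, whereas the fed ranges of young (45.0 to 66.6 CPM) and old males (46.1 to 69.8 CPM) overlapped almost fully. For slc25a36 the same difference was -1.09 ± 0.29 (edgeR adjusted p = 0.0531).

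The response to fasting differed with aprt genotype for a few carriers, among them the iron exporter slc40a1 and several mitochondrial carriers. The difference between Het and WT responses was called for 7 members, 2 higher and 5 lower, or 4.67% against 4.4% of all genes, 2.1% higher and 2.3% lower. That share lay near the background. For the mitochondrial choline carrier slc25a48 the young fed WT males stood at 25.0, 11.4 and 14.3 CPM and the young fed Het males at 65.6, 202, 92.2 and 101 CPM. Old fed WT males stood at 33.2, 22.7 and 37.2 CPM and old fed Het males at 108, 116, 69.6 and 102 CPM. In fasted males WT ran from 70.5 to 254 CPM and Het from 34.6 to 167 CPM, so the genotypes were apart when fed and overlapped when fasted. The Het response was lower than the WT response by 2.81 ± 0.59 on the log2 scale (edgeR adjusted p = 0.00682).

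The iron exporter slc40a1 (ferroportin) showed its difference in young fed males, with WT at 44.1, 41.6 and 56.3 CPM and Het at 204, 135, 172 and 323 CPM. In old fed males it stood at 85.8, 29.9 and 58.8 CPM in WT and 117, 91.2, 60.5 and 88.2 CPM in Het, and in all fasted males it lay between 31.7 and 90.2 CPM. Its responses differed by -1.42 ± 0.36 (edgeR adjusted p = 0.0201). The fatty acid carrier and acyl-CoA synthetase slc27a4 was the reverse case. Fed WT males stood at 19.6, 19.4 and 16.7 CPM when young and 14.1, 16.7 and 11.3 CPM when old, fed Het males at 7.49, 6.59, 5.79 and 5.87 CPM when young and 7.71, 6.80, 8.10 and 7.78 CPM when old. Every fed Het male lay below every fed WT male, fasted males of both genotypes lay between 7.28 and 13.95 CPM, and the responses differed by 1.26 ± 0.23 (edgeR adjusted p = 0.00272).

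**Figure D2:**
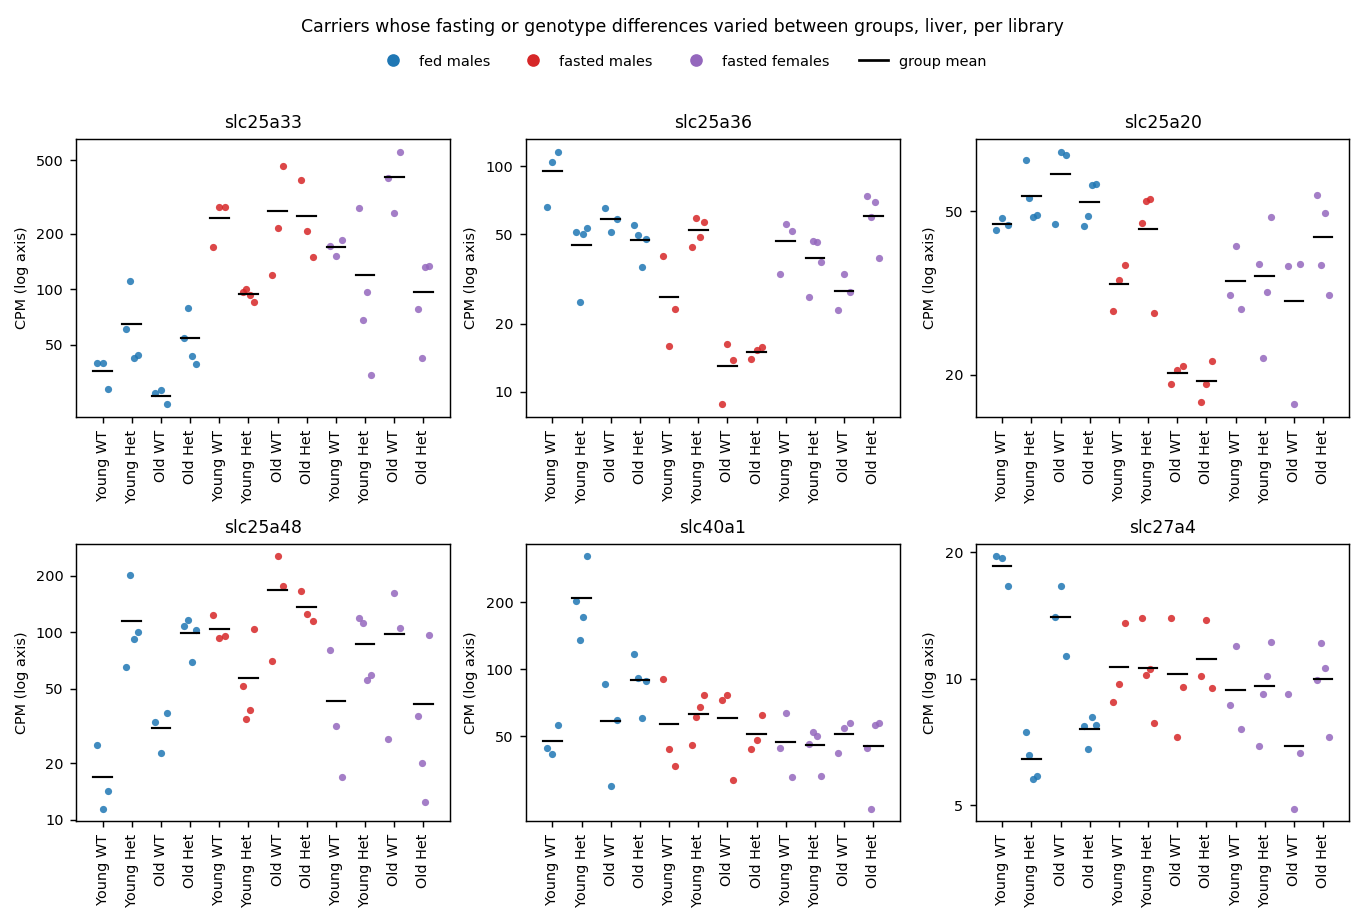
Liver CPM on a log axis for 6 carriers, 1 point per fish, in the 12 liver groups; black bars are group means. In slc25a48, slc40a1 and slc27a4 the young fed WT and young fed Het males do not overlap, whereas fasted fish of the genotypes do; the group means of slc25a20 and slc25a36 are lowest in old fasted males.

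The pyrimidine nucleotide carriers were both among the 7. In slc25a36 the response differed by 1.30 ± 0.28 (edgeR adjusted p = 0.0083), with young fed WT males at 65.8, 105 and 116 CPM, young fed Het males at 51.0, 25.0, 50.2 and 53.1 CPM, young fasted WT males at 40.0, 16.0 and 23.2 CPM and young fasted Het males at 43.7, 58.8, 48.8 and 56.9 CPM. In slc25a33 it differed by -1.67 ± 0.49 (edgeR adjusted p = 0.0465), and in 19 of the 27 fits with 1 male removed it was not called. The remaining members were the lysosomal histidine and peptide carrier slc15a4 (-1.66 ± 0.49, edgeR adjusted p = 0.048, lost in 21 of 27) and the pyrimidine-preferring nucleoside carrier slc28a1 (-0.70 ± 0.19, edgeR adjusted p = 0.0283). Of the 7, only 3 were called in every fit with 1 male removed. The count of 7 became 3 without old WT male 5 and 11 without old WT male 4, both fed.

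Directly between genotypes, 4 members were higher and 5 lower in Het among young fed males (6% of members, against 5.8% of all genes, 2.78% higher and 3.02% lower). Beside slc25a48 (2.77 ± 0.63, edgeR adjusted p = 0.00599), slc40a1 (2.14 ± 0.38, edgeR adjusted p = 0.00057) and slc27a4 (-1.53 ± 0.23, edgeR adjusted p = 0.00011), the orphan mitochondrial carrier slc25a43 was higher, at 0.88, 0.89 and 1.18 CPM in WT and 5.56, 1.71, 3.34 and 2.30 CPM in Het. The glutamine carrier slc1a5 was lower, at 124, 91.3 and 98.0 CPM in WT and 70.3, 33.0, 40.2 and 34.8 CPM in Het (-1.23 ± 0.30, edgeR adjusted p = 0.0109), and so was the mitochondrial glutamate carrier slc25a22 (-1.47 ± 0.42, edgeR adjusted p = 0.0293). Leaving out 1 fish at a time, slc27a4, slc40a1 and slc25a43 were called in each fit, and the other 6 were not, with 4 members called without young WT male 46.

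In old fed males 2 members were higher and 1 lower in Het (2% of members, against 7.33% of all genes, 3.45% higher and 3.88% lower). The nucleoside carrier slc28a1 stood at 16.8, 17.3 and 19.7 CPM in WT and 32.8, 29.6, 28.1 and 35.4 CPM in Het (0.81 ± 0.19, edgeR adjusted p = 0.00863). The riboflavin carrier slc52a3 stood at 6.85, 6.58 and 6.17 CPM in WT and 9.75, 10.1, 11.5 and 13.0 CPM in Het (0.76 ± 0.18, edgeR adjusted p = 0.0108). The third was slc27a4 (-0.89 ± 0.23, edgeR adjusted p = 0.016). Without the leukocyte-rich livers all 3 were still called. Without old WT male 5 the adjusted p was 0.0843 for slc28a1, 0.0843 for slc52a3 and 0.15 for slc27a4. That liver also held the highest summed skeletal muscle markers of all livers, 264 CPM, whose part was not tested.

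In fasted fish over both ages and sexes, edgeR called 0 of 150 members between genotypes (0%, against 0.132% of all genes, 0.046% higher and 0.0862% lower), 13 had an unadjusted p under 0.05, and DESeq2 called 3, which were slc25a33, slc25a32 and slc25a36. The edgeR differences were -1.01 ± 0.24 for slc25a33 (adjusted p = 0.0725), 0.52 ± 0.12 for slc25a32, a carrier of folate and FAD (adjusted p = 0.0725), and 0.51 ± 0.14 for slc25a36 (adjusted p = 0.155). In muscle edgeR called 0 of 140 members between genotypes (0%, against 0.0794% of all genes, 0.0427% higher and 0.0366% lower), 21 had an unadjusted p under 0.05, and DESeq2 called 1, the magnesium carrier slc41a1, for which edgeR gave -0.66 ± 0.18 (adjusted p = 0.152).

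Many carriers of fasted liver differed between the sexes. The fatty acid carrier slc27a6 was far lower in females and the cystine carrier slc7a11 far higher, both without overlap. Of 150 members 28 were higher and 38 lower in females, or 44% against 42.7% of all genes, of which 20.5% were higher and 22.2% lower. The share of carriers called thus lay near the background. The median log2 difference was -0.11 over members and -0.06 over all genes. TMM scaling factors ran from 0.54 to 0.81 in old fasted female livers and from 1.05 to 1.505 in fasted male livers. Levels compared between the sexes, and narrow gaps between them, therefore depend on that scaling. The same 13 fasted males stand in this comparison and in that of fasting, so the values of both are not independent of each other. Hepatocyte markers moved with sex, from 97230 to 196700 CPM in the 13 fasted males and from 54040 to 107400 CPM in the 14 fasted females in sum, with 8 of 10 called lower in females and 4 of 14 leukocyte markers lower as well, and their part in the results for sex was not tested.

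The fatty acid carrier and acyl-CoA synthetase slc27a6 ranged from 149 to 541 CPM in fasted males (median 447) and from 12.7 to 75.7 CPM in fasted females (median 38.0). The groups lay far apart, with a log2 difference of -3.28 ± 0.25 (edgeR adjusted p = 3.5e-12). Fed males, which are not part of that test, stood at 206 to 559 CPM. The cystine and glutamate exchanger slc7a11 ranged from 2.04 to 19.3 CPM in males (median 6.65) and from 20.0 to 73.4 CPM in females (median 35.5), again without overlap, and differed by 2.22 ± 0.30 (edgeR adjusted p = 3.29e-07).

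Amino acid carriers were split, with 6 of 23 higher and 8 lower in females, where 20.5% of all genes were higher and 22.2% lower. The creatine carrier slc6a8 had medians of 1.48 CPM in males (0.65 to 7.29) and 7.15 CPM in females (1.05 to 19.3) and was higher by 1.98 ± 0.26 (edgeR adjusted p = 2.8e-07). The glutamine carrier slc1a5 was higher by 0.79 ± 0.16 (edgeR adjusted p = 0.000129). Lower in females were slc7a2 with medians of 202 CPM in males and 71.0 CPM in females (-1.27 ± 0.22, edgeR adjusted p = 2.3e-05) and slc7a3 with 42.5 and 12.2 CPM (-1.31 ± 0.34, edgeR adjusted p = 0.00222). The glycine carrier slc6a9 and the neutral amino acid carrier slc38a2 were also called lower, at -1.61 ± 0.61 (edgeR adjusted p = 0.0333) and -2.06 ± 0.66 (edgeR adjusted p = 0.0121). Without the leukocyte-rich livers these became -0.21 (edgeR adjusted p = 0.602) and -0.79 (edgeR adjusted p = 0.0483), and slc46a2 went from -1.54 to -0.30 (edgeR adjusted p = 0.339).

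**Figure D3:**
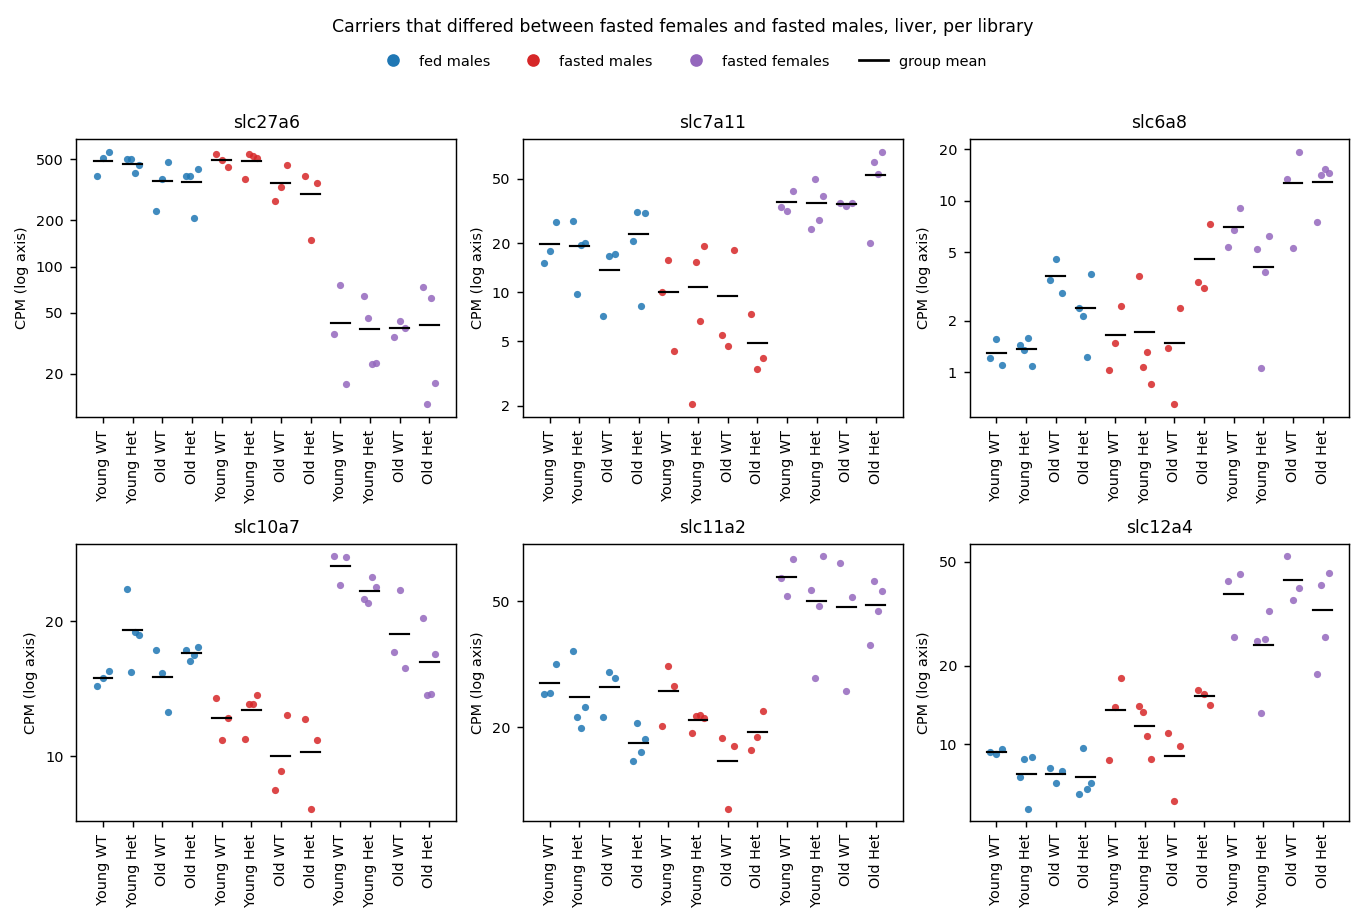
Liver CPM on a log axis for 6 carriers, 1 point per fish, in the 12 liver groups; black bars are group means. All fasted females lie below all males in slc27a6 and above all fasted males in slc7a11 and slc10a7, while slc6a8, slc11a2 and slc12a4 overlap between the sexes.

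Members higher in females included some carriers of metals, of ions and of organelle membranes other than those of the mitochondrion. Carriers of organelle membranes were not counted as a group. Of all genes 20.5% were higher and 22.2% lower. The ferrous iron carrier slc11a2 had medians of 20.1 CPM in males (11.1 to 31.2) and 52.9 CPM in females (26.0 to 69.4), a difference of 1.35 ± 0.13 (edgeR adjusted p = 7.54e-10). Metal carriers were higher in 6 and lower in 2 of 20 cases, also including the copper importer slc31a1 (0.68 ± 0.08, edgeR adjusted p = 7.69e-08) and the zinc carrier slc39a11 (1.34 ± 0.17, edgeR adjusted p = 1.11e-07). The potassium and chloride cotransporter slc12a4 had medians of 13.3 and 34.0 CPM and a difference of 1.46 ± 0.15 (edgeR adjusted p = 1.03e-09). Higher too were the lysosomal sialic acid carrier slc17a5 (1.33 ± 0.17, edgeR adjusted p = 1.62e-07), the sugar phosphate family member slc37a3 (1.36 ± 0.15, edgeR adjusted p = 5.16e-09) and the acetyl-CoA carrier slc33a1 (1.38 ± 0.15, edgeR adjusted p = 4.82e-09). For slc10a7, needed in humans for normal glycosylation in the secretory pathway, males ended at 13.68 CPM and females began at 13.70 CPM, with medians of 12.1 and 22.2 CPM and a difference of 0.90 ± 0.08 (edgeR adjusted p = 3.81e-10). The Golgi exchangers slc9a7 (1.12 ± 0.20, edgeR adjusted p = 4.48e-05) and slc9a8 (1.01 ± 0.13, edgeR adjusted p = 2.56e-07) were higher in females.

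Sugar carriers were mostly lower where called, with 1 of 17 higher and 7 lower in females. The shares over all genes were 20.5% higher and 22.2% lower. Among mitochondrial carriers 4 of 26 were higher and 7 lower, with slc25a36 higher (0.89 ± 0.14, edgeR adjusted p = 8.3e-06) and the dicarboxylate carrier slc25a10 lower (-0.64 ± 0.14, edgeR adjusted p = 0.000515). The orphan slc25a35 was lower by 2.25 ± 0.38 on the log2 scale (edgeR adjusted p = 1.35e-05), with medians of 3.57 and 0.81 CPM, and by 1.34 without the leukocyte-rich livers. The bile acid carrier slc10a2 (-2.13 ± 0.37, edgeR adjusted p = 2.15e-05), slc26a5 (-1.76 ± 0.52, edgeR adjusted p = 0.00704) and slc12a9 (-1.45 ± 0.43, edgeR adjusted p = 0.0072) were lower in females, with overlapping ranges.

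With age, fed male liver had 9 members higher and 2 lower in old fish (7.33% of members, against 9.28% of all genes, 6.91% higher and 2.38% lower), and fasted male liver had 14 higher and 12 lower (17.3% of members, against 14.6% of all genes, 8.9% higher and 5.66% lower). The rises of slc7a7, slc6a9, slc38a2 and slc46a2 were among the larger ones in both and lay in the same few old livers that were rich in leukocyte markers. In fasted females 7 members were higher and 4 lower (7.33% of members, against 5.95% of all genes, 2.91% higher and 3.04% lower), and none of these 4 genes was among them. A set of other carriers, led by slc43a1, slc25a36, slc25a20 and slc20a2, differed with age in fasted males with those livers and without them.

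The glycine carrier slc6a9 stood at 31.6 CPM in fed old WT male 4 and at 39.2 CPM in fed old Het male 13, and between 1.17 and 2.92 CPM in the other 5 fed old males. In fasted old males it stood at 73.2 CPM in WT male 18, 13.8 CPM in WT male 19 and 50.5 CPM in Het male 26, and between 1.19 and 1.69 CPM in the remaining 3. Young males lay between 0.68 and 2.16 CPM. The amino acid exchanger slc7a7 followed the same fish, at 9.00 and 5.07 CPM in fed males 4 and 13 and 18.5, 2.29 and 10.6 CPM in fasted males 18, 19 and 26, against at most 0.40 CPM in young males. So did slc38a2, with 127 CPM in male 18, and slc46a2, a relative of the intestinal folate carrier, with 20.8 CPM in male 18. Apart from these fish, young fasted Het female 37 stood at 4.28 CPM for slc7a7 and 4.74 CPM for slc38a2. Leukocyte marker sums in the group of that female were at most 34.8 CPM.

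In fasted males the fitted age differences were 4.27 ± 0.91 for slc6a9 (edgeR adjusted p = 0.00276), 4.72 ± 1.199 for slc7a7 (edgeR adjusted p = 0.0083), 3.05 ± 0.92 for slc38a2 (edgeR adjusted p = 0.0226) and 2.76 ± 0.75 for slc46a2 (edgeR adjusted p = 0.0125). Leukocyte markers were called higher with age for 14 of 14 genes in fasted males, 10 of 14 in fed males and 0 of 14 in fasted females. Without the 4 leukocyte-rich livers the values were 1.49 for slc6a9 (edgeR adjusted p = 0.0392), 1.40 for slc7a7 (edgeR adjusted p = 0.413), 0.52 for slc38a2 (edgeR adjusted p = 0.601) and 0.30 for slc46a2 (edgeR adjusted p = 0.71). In fed males they were then -0.10 for slc6a9, 0.45 for slc7a7, -0.24 for slc38a2 and -0.15 for slc46a2, with none called. The livers kept still included an old fasted WT male at 158 CPM of summed leukocyte markers, whose part in the slc6a9 call was not tested. Without the leukocyte-rich livers 5 members were called in fed males, 3 higher and 2 lower, and 9 in fasted males, 4 higher and 5 lower, of which 8 were among the 26. Leaving out single fish, 1 member was called in fed males without fish 4 and 14 in fasted males without fish 26.

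**Figure D4:**
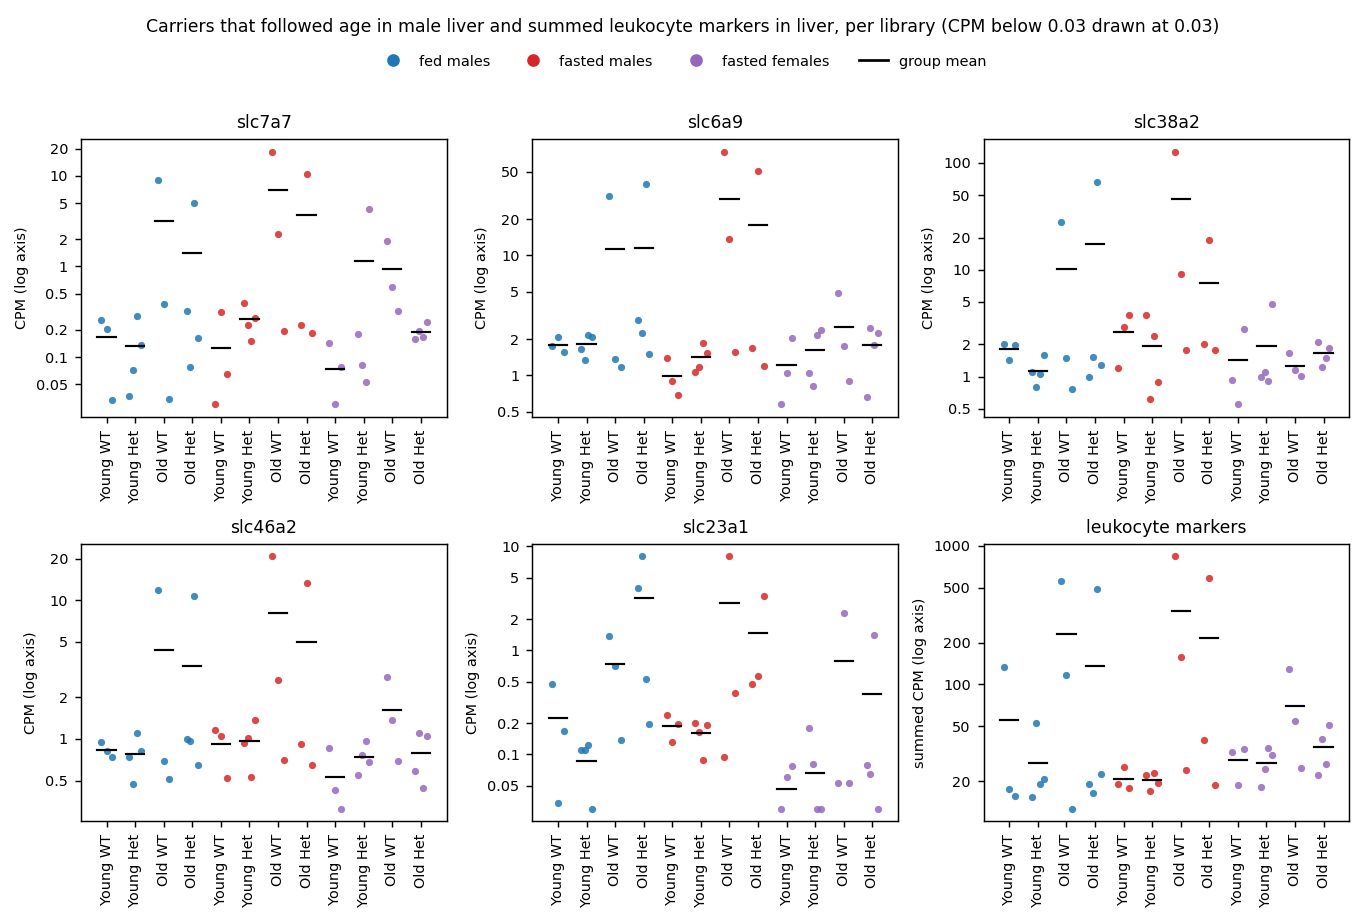
Liver CPM on a log axis for 5 carriers and for the sum of 14 leukocyte markers, 1 point per fish, in the 12 liver groups; black bars are group means. In old male livers 4 and 13 (fed) and 18 and 26 (fasted) the leukocyte sum lies between 485 and 842 CPM, and slc7a7, slc6a9, slc38a2 and slc46a2 are high in the same fish.

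The large neutral amino acid carrier slc43a1 ranged from 56.1 to 95.3 CPM in the 7 young fasted males (median 70.2) and from 155 to 232 CPM in the 6 old ones (median 183). All old fish lay above all young ones, with a log2 difference of 1.30 ± 0.25 (edgeR adjusted p = 0.00117) and 1.31 without the leukocyte-rich livers. In fasted females it ranged from 43.3 to 86.6 CPM when young (median 54.8) and from 83.4 to 191 CPM when old (median 94.2), a difference of 1.03 ± 0.24 (edgeR adjusted p = 0.011). It was called in 8 of the 17 comparisons, and only slc25a36, with 9, was called in more.

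Lower in old fasted males were slc25a36, at 16.0 to 58.8 CPM when young (median 43.7) and 8.78 to 16.2 CPM when old (median 14.6), with a difference of -1.41 ± 0.21 (edgeR adjusted p = 5.02e-05), and slc25a20 (-0.98 ± 0.18, edgeR adjusted p = 0.00078). The sodium and phosphate cotransporter slc20a2 ranged from 87.7 to 115 CPM when young (median 97.5) and from 41.8 to 64.7 CPM when old (median 49.1), without overlap, and fell by 0.89 ± 0.15 (edgeR adjusted p = 0.000333). Without the leukocyte-rich livers these 3 differences were -1.31, -0.95 and -0.94 and each was still called. The Golgi zinc carrier slc30a6 was higher in old fish, at 7.87 to 25.1 CPM when young (median 16.5) and 14.7 to 101 CPM when old (median 36.9), by 1.23 ± 0.24 (edgeR adjusted p = 0.00124), and by 1.18 without the leukocyte-rich livers (edgeR adjusted p = 0.00807). Also lower in old fasted males was the carrier of aromatic amino acids and thyroid hormone slc16a10 (-0.67 ± 0.14, edgeR adjusted p = 0.00224), at -0.54 without those livers (edgeR adjusted p = 0.0233). The ascorbate carrier slc23a1 was called higher with age in both fed (3.41 ± 0.995, edgeR adjusted p = 0.0275) and fasted males (3.52 ± 0.98, edgeR adjusted p = 0.014), on levels of at most 0.47 CPM in young males. It was high in fed fish 11 and 12 and fasted fish 19 and 27, with 8.03 CPM in fish 12 and 8.01 CPM in fish 19, and of these none was among the 4 leukocyte-rich livers.

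The sodium-coupled sugar carrier slc5a10 had the largest fitted fall with age in fasted males, at -2.69 ± 0.77 (edgeR adjusted p = 0.0171). Its levels were 9.98 CPM in young WT male 32, 6.21 and 9.85 CPM in young Het males 38 and 41 and at most 0.96 CPM in the other fasted males, old ones included. Without male 32 the adjusted p was 0.375, and without the leukocyte-rich livers it was 0.101. It was also called higher on fasting in young males (2.22 ± 0.72, edgeR adjusted p = 0.0235). Called higher in old fasted males but not without the leukocyte-rich livers were the taurine carrier slc6a6 (1.39 ± 0.45, edgeR adjusted p = 0.0354), the amino acid carrier slc7a10 (1.37 ± 0.35, edgeR adjusted p = 0.00861), the dicarboxylate carrier slc13a3 (1.15 ± 0.35, edgeR adjusted p = 0.0221) and slc7a3 (1.85 ± 0.49, edgeR adjusted p = 0.0102). Their adjusted p was then 0.57, 0.23, 0.312 and 0.0577. In fed males the sodium-coupled sugar carrier slc5a9 rose from a young median of 6.83 CPM (5.63 to 10.8) to an old median of 16.8 CPM (8.45 to 28.4), by 1.22 ± 0.28 (edgeR adjusted p = 0.00485), and by 0.93 without those livers (edgeR adjusted p = 0.0444).

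The difference of the age effect between the sexes was called for 3 members (2%, against 0.954% of all genes, 0.816% higher and 0.138% lower), and in each the change with age was higher in females. These were slc25a36 (1.35 ± 0.29, edgeR adjusted p = 0.0124), slc25a20 (1.05 ± 0.25, edgeR adjusted p = 0.0292) and the reduced folate carrier slc19a1 (0.98 ± 0.19, edgeR adjusted p = 0.00557). Old fasted females stood between 23.1 and 73.6 CPM for slc25a36, above all 6 old fasted males. With 1 fish removed, slc25a20 was not called in 12 of 27 fits, and without the leukocyte-rich livers its adjusted p was 0.0811.

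In females the age calls also included the creatine carrier slc6a8, with a young median of 5.38 CPM (1.05 to 9.07) and an old median of 14.2 CPM (5.29 to 19.3), a difference of 1.25 ± 0.35 (edgeR adjusted p = 0.0307). The apical sodium and proton exchanger slc9a3 did not overlap, at 0.37 to 0.65 CPM when young and 0.82 to 1.55 CPM when old (1.29 ± 0.29, edgeR adjusted p = 0.00818). The lysosomal slc38a9, which reports arginine to the mTORC1 kinase in mammals, rose by a small but called amount, with medians of 92.3 and 109 CPM (0.31 ± 0.08, edgeR adjusted p = 0.0234). The purine nucleobase carrier slc43a3 was lower with age in females (-1.01 ± 0.26, edgeR adjusted p = 0.0192) and in fasted males (-0.99 ± 0.27, edgeR adjusted p = 0.0122). The male value was -0.81 without the leukocyte-rich livers (edgeR adjusted p = 0.114). The number of calls in females turned on single fish, being 3 without old WT female 17 and 25 without young Het female 34, and DESeq2 called 19 higher and 4 lower.

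In muscle, some carriers differed with age and few between the sexes. In old muscle 15 of 140 members were higher and 5 lower (14.3% of members, against 13.2% of all genes, 7.34% higher and 5.81% lower), a share near the background. The median log2 difference was 0.16 over members and 0.02 over all genes. Amino acid carriers were called higher in 4 of 21 cases and lower in none. Without the 3 leukocyte-rich muscles 4 members were called, 2 higher and 2 lower, none of them an amino acid carrier of the plasma membrane. Here too leukocyte markers moved with age, with 13 of 14 called higher, and the sums were highest in old males 18, 19 and 26. Hepatocyte markers were called higher in 7 of 9 cases and skeletal muscle markers lower in 6 of 7, and the part of these markers in the muscle results was not tested.

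The glycine carrier slc6a9 ranged from 0.49 to 1.33 CPM in young muscle (median 0.92) and from 1.03 to 6.997 CPM in old muscle (median 1.63), a log2 difference of 1.47 ± 0.29 (edgeR adjusted p = 0.00234). Its highest values, 6.997 and 4.96 CPM, were those of males 26 and 18, and without the 3 leukocyte-rich muscles the difference was 0.77 (edgeR adjusted p = 0.0704). The glutamine carrier slc1a5 had medians of 14.5 CPM (7.19 to 34.0) and 28.8 CPM (17.3 to 80.7), a difference of 0.98 ± 0.22 (edgeR adjusted p = 0.00614) and of 0.69 without those muscles (edgeR adjusted p = 0.0838). The zinc and manganese carrier slc39a8 had the largest fitted rise but stood at 0.17 CPM or less in young muscle, and its highest old value, 1.94 CPM, was that of male 25, whose muscle held the most hepatocyte markers. Without the leukocyte-rich muscles it was not called (2.06, edgeR adjusted p = 0.111).

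Mitochondrial carriers were higher in 4 and lower in 1 of 27 cases in old muscle, where 7.34% of all genes were higher and 5.81% lower. The basic amino acid carrier slc25a29 had medians of 7.53 and 14.3 CPM and a difference of 0.78 ± 0.22 (edgeR adjusted p = 0.0207), and slc25a36 had medians of 31.9 CPM (19.9 to 44.3) and 20.4 CPM (10.9 to 44.2) and a difference of -0.65 ± 0.13 (edgeR adjusted p = 0.00305). The oxodicarboxylate carrier slc25a21 was higher by 0.58 ± 0.12 (edgeR adjusted p = 0.00301). The 4 members called without the leukocyte-rich muscles were slc25a29 (0.98), slc25a21 (0.52), slc25a36 (-0.78) and the copper carrier slc31a2 (-0.33). The count was 8 without old WT female 15 and 34 without old WT male 20.

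Between the sexes 3 members were higher and 1 lower in female muscle (2.86% of members, against 3.2% of all genes, 1.6% higher and 1.6% lower). The copper carrier slc31a2 ranged from 3.70 to 6.43 CPM in males (median 4.51) and from 2.39 to 5.43 CPM in females (median 3.10), with a difference of -0.51 ± 0.08 (edgeR adjusted p = 0.00122). The calls for slc27a4 (0.56 ± 0.14, edgeR adjusted p = 0.0349), slc12a4 (0.36 ± 0.10, edgeR adjusted p = 0.0443) and the sodium and calcium exchanger slc8a3 (0.26 ± 0.07, edgeR adjusted p = 0.0431) did not hold in 10, 22 and 21 of 27 fits with 1 fish removed, and the count of calls ran from 1 without young WT male 31 to 9 without old WT male 20. Without the leukocyte-rich muscles slc31a2 was still called and these 3 were not, at edgeR adjusted p = 0.102, 0.162 and 0.0685.

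Most carriers differed between the tissues. Mitochondrial carriers leaned towards muscle, and every other class of carrier had more members higher in liver than in muscle. Liver and muscle of the same 27 fasted fish differed for 138 of 153 members, 47 higher in muscle and 91 higher in liver, or 90.2% against 86% of all 18485 genes tested, 42% higher and 44% lower in muscle. The median log2 difference of muscle against liver was -0.92 over members and -0.05 over all genes. Members had entered through 500 counts in either table, 146 of them reaching it in liver and 124 in muscle. The liver table also holds more libraries. The counts by tissue and this median are therefore not independent of how members were chosen. Library kit and sequencer differed between the tissues, so tissue and preparation cannot be told apart. Levels in this comparison are on a scaling over both tissues.

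Mitochondrial carriers were the group with the most members higher in muscle, 18 of 27 against 8 lower, with a median of 0.87. Of all genes 42% were higher and 44% lower in muscle. The ADP and ATP exchanger slc25a4 ranged from 0.38 to 5.38 CPM in liver (median 0.85) and from 2314 to 4002 CPM in muscle (median 3356), a log2 difference of 11.78 ± 0.24 (edgeR adjusted p = 8.47e-37). The aspartate and glutamate carrier slc25a12 gave 21 counts over all 27 livers and 82874 counts over the 27 muscles, with 69.0 to 199 CPM in muscle and at most 0.19 CPM in liver. The carnitine carrier slc25a20 was nearly level, with medians of 26.0 CPM in liver and 30.9 CPM in muscle (0.21 ± 0.09, edgeR adjusted p = 0.0409).

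**Figure D5:**
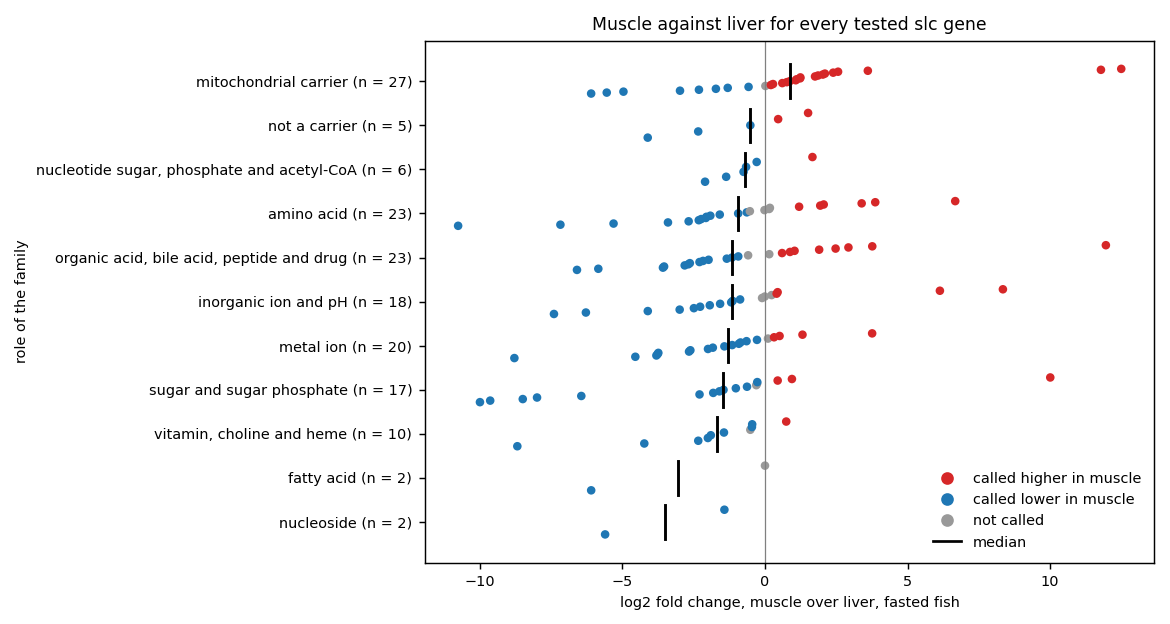
Log2 difference of muscle against liver in 27 fasted fish (horizontal axis) for every member, grouped by what the family transports (vertical axis), with 1 point per gene and a black bar at the median of each group. Mitochondrial carriers lie mostly above 0, with a median of 0.87, and the medians of the other groups lie below 0.

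Sugar carriers divided by tissue, with 3 of 17 higher in muscle and 12 lower, where 42% of all genes were higher and 44% lower. The insulin-responsive glucose carrier slc2a4 gave 51 counts over the livers and 37565 over the muscles, with medians of 0.05 and 56.6 CPM and a log2 difference of 10.004 ± 0.25 (edgeR adjusted p = 1.16e-33). The hepatic glucose carrier slc2a2 had medians of 255 CPM in liver (151 to 394) and 0.12 CPM in muscle (0 to 14.1), a difference of -9.99 ± 0.42 (edgeR adjusted p = 2.88e-25). The glucose 6-phosphate carrier slc37a4 had medians of 103 and 0.20 CPM and a difference of -8.49 ± 0.25 (edgeR adjusted p = 4.21e-31). The highest muscle values of both belonged to male 25, the muscle with the highest hepatocyte marker sum. The urate carrier slc2a9 had medians of 42.3 CPM in liver and 0 CPM in muscle, with 57 counts over all muscles (-9.63 ± 0.31, edgeR adjusted p = 8.8e-29).

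Amino acid carriers were higher in muscle in 6 and lower in 13 of 23 cases, where 42% of all genes were higher and 44% lower. The cystine carrier slc7a11 gave 13581 counts over the livers and 5 over the muscles, with 1.74 to 58.3 CPM in every liver and at most 0.08 CPM in any muscle. The exchanger slc7a6 was a muscle gene, at medians of 0.31 CPM in liver and 34.4 CPM in muscle (6.67 ± 0.14, edgeR adjusted p = 3.99e-36). The creatine carrier slc6a8 was higher in muscle as well, at 0.53 to 15.5 CPM in liver and 10.9 to 79.3 CPM in muscle (3.39 ± 0.22, edgeR adjusted p = 8.52e-19). So was slc7a10, at medians of 0.56 and 9.33 CPM (3.87 ± 0.17, edgeR adjusted p = 2.62e-24). The proline and imino acid carrier slc6a20 was a liver gene, at medians of 40.8 and 0.18 CPM (-7.17 ± 0.26, edgeR adjusted p = 1.03e-27).

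Metal carriers were lower in muscle in 15 of 20 cases, among them all 7 zinc exporters of the slc30 family (median -1.42). Over all genes 42% were higher and 44% lower in muscle. The zinc and manganese carrier slc39a8 had medians of 68.4 CPM in liver and 0.15 CPM in muscle (-8.79 ± 0.23, edgeR adjusted p = 6.04e-33). Vitamin, choline and heme carriers were lower in 8 of 10, with the riboflavin carrier slc52a3 at medians of 11.1 and 0 CPM (-8.68 ± 0.19, edgeR adjusted p = 5.07e-34). Among ion carriers 4 of 18 were higher and 11 lower in muscle, with the sodium and calcium exchanger slc8a3 at medians of 0.10 CPM in liver and 53.1 CPM in muscle (8.34 ± 0.20, edgeR adjusted p = 2.73e-34). The monocarboxylate family member slc16a12 gave 1 count over the 27 livers and 14435 over the 27 muscles, where it ranged from 6.27 to 96.1 CPM. Its relative slc16a9 was higher in muscle (3.76 ± 0.16, edgeR adjusted p = 2.78e-25), as were the magnesium carrier slc41a1 (3.76 ± 0.16, edgeR adjusted p = 7.65e-25) and the mitochondrial slc25a14 (3.61 ± 0.14, edgeR adjusted p = 5.77e-27). The organic cation carrier relative slc22a18 was higher in liver, at medians of 43.1 and 0.44 CPM (-6.59 ± 0.13, edgeR adjusted p = 3.97e-37), and so was slc5a9 (-7.99 ± 0.31, edgeR adjusted p = 1.36e-24). The members slc25a12, slc16a12 and slc9a5 were too low to be tested within liver.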

How the data were processed

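The authors' deposited tables hold whole-number gene counts per library, 1 table for 41 livers and 1 for 27 muscles, from polyA RNA. The submitters' processing notes name FastQC 0.11.8, Trim Galore 0.6.4, cutadapt 3.4 and STAR 2.7.6a. The genome build, annotation, strand setting and counting tool are not given in the sources used here, so carriers that overlap another gene or share reads with a near-identical copy are uncertain. Of the unnamed locus identifiers in the tables, 121 carry an slc symbol in RefSeq and are not members. Livers were prepared with another kit and sequencer than muscles, per the labels' protocols.

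Counts were fitted with edgeR 4.0.16 (R 4.3.3): TMM scaling, filterByExpr (minimum count 10, minimum total 15), 1 mean per group, quasi-likelihood tests of contrasts over all genes of a tissue, and Benjamini-Hochberg adjustment over all genes tested, with 0.05 as threshold. Log2 differences use edgeR's prior count handling, and SE is the difference divided by the root of F. Of the 153 members, 150 passed the filter in liver, 140 in muscle and 153 in the fit over both tissues. Groups follow the labels, and replicates are separate fish. No 2 libraries of a group agreed within counting noise (chi-square per degree of freedom at least 15.1 over 84 pairs). Liver and muscle pair by fish, per the series' design text; same-fish deviations correlated at a median of 0.13 over 27 fish and exceeded 0.1 in 23. The contrasts tested were feeding, sex, age, genotype, tissue and 3 differences between such contrasts, 17 in all. Alternatives were relative log expression size factors, DESeq2 1.42.0, no filter, a fit of the compared groups alone, leaving out each library, the fish as a block, a member minimum of 5000 counts and, chosen after seeing the data, leaving out leukocyte-rich libraries. The scripts were tested on simulated data.

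The members, role lists and marker lists were chosen with earlier results of these data known. The naming rule took, in each contrast, up to 10 largest rises and 10 largest falls among called members with an average log2 CPM of 0 or more, and further members by role; not every member it took is printed in every contrast. The genes drawn and screened for outlying fish were chosen after their values were seen.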

Additional observations from a re-analysis of the deposited data

Results flagged for a closer look

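For 27 carriers in liver and 3 in muscle, 144 combinations of a gene and a group of 4 libraries were screened for a fish far from the other 3, and 18 were found. Chance flags about 1 in 20 groups if values are normally distributed. The screen used CPM without logarithms, and its genes were chosen after their values were seen. The 18 therefore cannot be weighed against that rate. Young fasted Het female 34 stood apart in 4 genes, at 84.3 CPM for slc26a5, 22.9 CPM for slc12a9, 2.22 CPM for slc10a2 and 156 CPM for slc25a29. Fed old Het male 13, one of the leukocyte-rich livers, stood apart in 5, at 5.07 CPM for slc7a7, 39.2 CPM for slc6a9, 66.5 CPM for slc38a2, 10.8 CPM for slc46a2 and 28.7 CPM for slc9a8. Young fasted Het male 38 stood at 14.2 CPM for slc9a7 and 3.63 CPM for slc6a8. Old fasted Het female 21, whose aprt level was that of WT, stood at 7.57 CPM for slc6a8, and young fasted Het female 37 at 4.28 CPM for slc7a7 and 4.74 CPM for slc38a2. Among fed males, old Het male 12 stood at 2.96 CPM for slc10a2, old Het male 14 at 59.5 CPM for slc3a2, young Het male 52 at 4.74 CPM for slc12a9 and young Het male 53 at 25.0 CPM for slc25a36.

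Between groups, 11 differences of an effect passed the edgeR test (adjusted p under 0.05). Fasting differed between old and young males for slc25a20 by -1.15 on the log2 scale. It differed between Het and WT males for slc25a48 by -2.81, slc25a33 by -1.67, slc15a4 by -1.66, slc40a1 by -1.42, slc28a1 by -0.70, slc27a4 by 1.26 and slc25a36 by 1.30. The age effect in fasted liver differed between females and males for slc25a36 by 1.35, slc25a20 by 1.05 and slc19a1 by 0.98.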

How the results depend on the processing

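Of 5005 refits of the 182 named results, 4495 kept direction and call, 507 kept direction and lost the call, and 3 turned direction. The 3 were slc38a2 (-0.24), slc6a9 (-0.10) and slc46a2 (-0.15) with age in fed male liver without the leukocyte-rich libraries. Of the 20 members named for fasting, 19 were called with each male left out, and the exception was slc12a1. With each fish left out in turn, those called throughout were 19 of 20 for fasting in old and 13 of 20 in young males. For age they were 1 of 10 in fed males, 10 of 20 in fasted males, 3 of 10 in females and 8 of 15 in muscle. For sex they were 17 of 20 in liver and 1 of 4 in muscle, and for tissue 20 of 20. For genotype they were 3 of 9 in young and 0 of 3 in old fed males, and 3 of 7 for fasting by genotype. Counts of called members moved by over 1.5 times as follows. With relative log expression size factors the fasting by age count was 2. With no filter it was 7 for age in fed males and 13 for age in muscle. With DESeq2 it was 4 for fasting by age, 12 for fasting by genotype, 23 for age in females, of which 19 were higher and 4 lower, 5 for age by sex, 16 and 10 for genotype in young and old fed males, 3 and 1 for genotype in fasted liver and muscle, and 9 for sex in muscle. With only the groups compared it was 9 for age in fasted males, 3 for age in females and 21 and 7 for genotype in young and old fed males; age in fed males gave 13, split into 6 higher and 7 lower. Without leukocyte-rich libraries it was 3 for fasting by age, 12 for fasting by genotype, 5 and 9 for age in fed and fasted males, 15 and 6 for genotype in young and old fed males, 4 for age in muscle and 2 for sex in muscle. A member minimum of 5000 counts left 108 genes. The cause was not tested.

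With 1 fish left out at a time the count ran from 69 to 82 for fasting, 31 to 49 in young and 57 to 74 in old males, 1 to 3 for fasting by age and 3 to 11 for fasting by genotype. It ran from 1 (without fish 4) to 11 for age in fed males, 14 (without fish 26) to 29 in fasted males and 3 to 25 in females, and from 2 to 4 for age by sex. Sex ran from 60 to 71 in liver and 1 (without fish 31) to 9 (without fish 20) in muscle. Genotype ran from 4 (without fish 46) to 10 in young fed, 0 (without fish 5) to 7 (without fish 4) in old fed and 0 to 2 in fasted liver, and was 0 throughout in muscle. Age in muscle ran from 8 (without fish 15) to 34 (without fish 20), and tissue from 136 to 139. DESeq2 and the fit with no filter moved the median of all genes between tissues by 0.23 and 0.14.

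With the fish as a replicate block the tissue count was 140, 48 higher and 92 lower, among them all 138 of the fit without it. No paired analysis was possible because fish numbers are not shared between the groups of the other comparisons. Depth limits members near 0, such as slc4a10, at 0 to 0.15 CPM in fed and 0 to 2.76 CPM in fasted males.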

Other observations

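Of 44 transporter symbols whose names lie outside the slc pattern, a list written with earlier results known, 28 were found and 25 tested in liver. Against 24% higher and 23.6% lower of all genes, fasting males had 4 of these 25 higher and 8 lower. Their median log2 difference was -0.20, against 0.02 over all genes. Among those higher were ucp1, a mitochondrial proton carrier of the slc25 fold (2.91), mfsd2a, a carrier of lysophospholipids (1.53), and abcc2 (0.49). Lower were abcb11, the bile salt export pump (-2.34), the peroxisomal abcd2 (-1.17) and the glycerol channel aqp9 (-1.15), among others. Sex in liver had 7 of 25 higher and 4 lower in females, where 20.5% of all genes were higher and 22.2% lower. Age in muscle had 3 of 21 higher and none lower, where 7.34% of all genes were higher and 5.81% lower. Tissue had 7 of 25 higher and 16 lower in muscle, where 42% of all genes were higher and 44% lower.

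Of 23 symbols of the cellular response to amino acid shortage, 15 were found. Fasting males had 6 higher, among them sesn2 (2.01), cth (1.11) and atf4a (0.68), and 5 lower, among them psat1 (-2.79), wars (-1.90), gars (-1.32) and asns (-0.50). Of all genes 24% were higher and 23.6% lower in that comparison. In females psat1 was higher than in males by 4.44. Of the 15, 3 were higher and 4 lower in females, against 20.5% and 22.2% of all genes. Of 86 tested liver loci that lack an slc name in the tables but carry one in RefSeq, 24 were higher and 15 lower in fasted males, and 15 higher and 26 lower in females. The shares over all genes were 24% higher and 23.6% lower on fasting, and 20.5% higher and 22.2% lower in females.

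Exocrine pancreas markers summed to between 58.7 and 4057 CPM in the livers, with a median of 1052 CPM, and their part in the liver results was not tested.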
